A study of Xenopus tropicalis with 12 samples.

Results

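The specific probes lowered by both mixtures were a set of 64 microarray probes, chosen from 32899 non-control probes because their signal was lower on every exposed array than on every control array. The choice used the authors' deposited table of log2 values. A member had the word specific in its probe name, a mean at least 0.7 log2 units below the control mean in each mixture, no overlap between the 8 exposed and the 4 control arrays, and a signal flagged well above background on all 4 controls. Among 14325 specific probes with that flag, 68 met these criteria, which is 0.475%. Without the fold criteria, 474 of them (3.31%) had all exposed arrays below all controls. Of 5 genes left out by name (krt78.1, cytl1, spata45, synm and inhbc.1), 4 had met them, leaving 64 probes for 52 transcript accessions. The same criteria turned upward, a mean at least 0.7 higher in each mixture with no overlap, were met by 106 probes.

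The series profiled whole embryos of the frog Xenopus tropicalis at 3 days post fertilization on single-colour Agilent arrays, with 4 arrays per group and 1 RNA sample per array. The groups were embryos exposed to naphthenic acids mixture S1, embryos exposed to mixture S2, and control embryos C. The mixtures were separate lots of 1 commercial product. Concentration, exposure time, vehicle and the number of embryos per RNA sample were not given in the sources used here. Nothing there says that replicates came from separate clutches or cultures, so errors and p-values measure the spread between these samples, which may be technical. Replicates are called S1-1 to S1-4, S2-1 to S2-4 and C-1 to C-4.

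Naphthenic acids are carboxylic acids from petroleum, mostly with saturated rings, and they are known as toxic constituents of the process water of oil sands mining. At this age a frog embryo is a swimming larva in which the eye lens, the photoreceptors of the eye and pineal organ, the trunk muscle and the ciliated cells of the skin are differentiated. An array probe of a whole embryo reads the summed RNA of all these tissues. Fewer cells of a type and less RNA per cell therefore cannot be told apart in any value below.

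Levels are given as log2 of the processed signal minus the log2 of that array's 75th percentile, so that a level of 0 is a bright probe and -4 a dim one. A level is read only between arrays for 1 probe, not between probes. The array groups differed in brightness: mean log2 signal was 6.47 ± 0.33 in S1, 6.84 ± 0.25 in S2 and 7.24 ± 0.37 in controls (SD, n = 4 each). Between 84.2% and 87.4% of probes were well above background on S1 arrays, between 84.4% and 86.4% on S2 arrays, and between 85.7% and 92.3% on control arrays. Array C-3 stood apart on the first principal component (score 60.50, 26.7% of the variance), with C-4 and S1-4 next on that side, at 34.6 and 33.5. All 3 came from slide 3, whose other array, S2-4, was at 3.51 there and stood apart on the third component, at -56.6.

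The set was mostly made of transcripts that carry an accession and no gene name. Of the 52 accessions, 35 were predicted RefSeq transcripts and 17 were cDNA clones. RefSeq's current gene table (assembly UCB_Xtro_10.0) matched 18 of them, 9 with a gene symbol and 9 with a placeholder, and 34 had no match. The 9 symbols were bfsp2, cryga.1, pinopsin100496420, cd36l, mss51, stpg4, cnp, c4h3orf84 and c4orf45. The array was designed on genome build JGI 4.1, so no coordinates of the newer assembly are given.

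Across the 64 members, the log2 change against control ranged between -3.22 and -0.70 in S1, with a median of -0.97, and between -3.002 and -0.74 in S2, with a median of -1.29. Over all 29168 probes tested the medians were -0.02 in S1 and -0.04 in S2. By limma at an adjusted p under 0.05, 28 members were called lower in S1, where 0.703% of all tested probes were called lower. In S2, 56 members were called lower, where the background was 2.63%. On the 75th percentile scale 57 members had no overlap between exposed and control arrays, as did 3.11% of the 14325 eligible probes. These 2 contrasts chose the members, so the counts and changes describe the set and carry no test.

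The lowest mean of both changes belonged to a pair of cDNA clones with no gene name. BC158527 had levels of 1.02, 1.22, 0.18 and 0.17 on the S1 arrays and of 0.94, 1.03, 1.24 and 0.23 on the S2 arrays, against 3.96, 3.95, 3.68 and 3.86 on the control arrays. Every exposed array was thus more than 2 log2 units below every control array, and the controls lay close together. The change was -3.22 ± 0.26 in S1 (SE) and -3.002 ± 0.26 in S2, a signal 9.29-fold and 8.01-fold lower than in controls.

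The second clone, CU075792, had levels of -0.73, -0.63, -0.72 and -0.59 in S1 and of -0.70, -1.26, -0.63 and -0.65 in S2, against 1.64, 1.25, 1.06 and 1.36 in controls. Its exposed arrays lay in a narrow band apart from S2-2, and the groups did not overlap. It was 3.99-fold lower in S1 and 4.41-fold lower in S2 than in controls.

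Members with a role in the lens of the eye were bfsp2, which encodes a protein of the beaded filaments of lens fibre cells, and cryga.1, a gamma crystallin. For bfsp2 the levels were -3.89, -3.84, -2.61 and -2.90 in S1 and -3.86, -4.23, -2.88 and -2.05 in S2, against -1.77, -2.08, -1.90 and -1.46 in controls. Arrays 1 and 2 of both mixtures were the lowest, and S2-4 was just above C-2, so that on this scale S2 and controls overlapped. The mean change was -1.51 ± 0.43 in S1 and -1.45 ± 0.43 in S2 (SE).

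For cryga.1 the levels were -5.28, -5.50, -4.18 and -4.03 in S1 and -5.68, -5.08, -4.63 and -5.59 in S2, against -4.21, -4.08, -3.60 and -3.86 in controls. Arrays S1-3 and S1-4 overlapped with the controls on this scale, whereas all S2 arrays were below them. The change was -0.81 ± 0.34 in S1 and -1.31 ± 0.34 in S2 (SE). Under normexp background correction the S1 change turned to 0.21 with outlying local backgrounds replaced, and with backgrounds as measured it was 0.58 in S1 and 0.14 in S2.

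Lens genes that were not members gave no call by limma, though at an unadjusted p under 0.05 4 of 6 were lower in each mixture and 1 was higher in S2. At that unadjusted p, 10% of 4372 named genes were lower and 8.17% higher in S1, and 13.3% lower and 9.31% higher in S2. The gene lists here and below were chosen with earlier results of these data known. Their counts beside the shares of all named genes are therefore a description and no independent test. Of 28 genes on the lens list, 8 were measured, and of the 6 non-members 5 were below 0 in each mixture, with median changes of -1.30 in S1 and -1.16 in S2. The other beaded filament gene, bfsp1, had a change of -1.74 ± 0.48 in S1 (limma adjusted p = 0.0843) and of -1.57 ± 0.48 in S2 (limma adjusted p = 0.0813). Another gamma crystallin, cryga.7, had -1.68 ± 0.62 and -2.05 ± 0.62 (limma adjusted p = 0.188 and 0.0812). The gamma crystallin cryga.4 went the other way, with a change of 0.19 ± 0.14 in S1 (limma adjusted p = 0.556). Its mean level in S2 was -3.15 against -3.49 in controls, and it was the gene higher in S2 at the unadjusted p. The mean of the 6 genes relative to controls spread widely between arrays, between -1.34 and -0.75 in S1 and between -1.94 and -0.06 in S2, against -0.21 to 0.20 in controls. Whether less lens tissue had a part in the bfsp2 and cryga.1 values was not tested.

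The member pinopsin100496420 encodes a pinopsin, a photopigment first known from the chicken pineal gland. Its levels were -0.77, -1.003, -0.83 and -0.996 in S1 and -0.92, -0.91, -1.25 and -1.04 in S2, against -0.26, 0.02, 0.59 and -0.45 in controls. The exposed arrays lay close together and the controls were spread over a wider range, with C-3 highest, and the groups did not overlap. The change was -0.88 ± 0.19 in S1 and -1.01 ± 0.19 in S2 (SE).

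Among 11 other measured photoreceptor and pineal genes, 1 was called lower in S1 and 3 in S2, and none higher, where 0.892% of 4372 named genes were called lower in S1 and 3.02% in S2. The called genes were rbp3, which encodes the retinoid-binding protein of the space around photoreceptors, in both mixtures, and in S2 also rom1, an outer segment membrane protein, and gucy2f, a retinal guanylate cyclase. The rbp3 change was -0.48 ± 0.09 in S1 and -0.64 ± 0.09 in S2 (limma adjusted p = 0.0175 and 0.00218). In S2, rom1 had -0.53 ± 0.11 and gucy2f -0.48 ± 0.12 (limma adjusted p = 0.0195 and 0.0403). The medians of the 11 genes were both -0.25. Their mean level relative to controls ran between -0.42 and 0.00 in S1 and between -0.35 and -0.14 in S2, against -0.21 to 0.20 in controls. Whether fewer photoreceptors had a part in the pinopsin value was not tested.

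The name of cd36l places it with CD36, a scavenger receptor that takes up fatty acids and lipoproteins in mammals, and RefSeq lists cd36 as its neighbour. Its levels were 0.25, 0.55, 0.50 and -1.39 in S1 and 0.34, 0.36, 0.57 and -0.13 in S2, against 1.64, 1.28, 1.01 and 1.61 in controls. Array S1-4 was far below the other S1 arrays, S2-4 was the lowest of S2, and the groups did not overlap. The change was -1.41 ± 0.36 in S1 and -1.10 ± 0.36 in S2 (SE).

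The mss51 gene is named for a yeast activator of mitochondrial translation and is expressed in skeletal muscle in mammals. Its levels were -2.76, -2.36, -1.87 and -2.34 in S1 and -2.65, -2.87, -2.64 and -2.51 in S2, against -1.70, -1.89, -1.28 and -1.57 in controls. S1-3 was just above C-2, the lowest control, on this scale, and all S2 arrays were below the controls. The change was -0.72 ± 0.18 in S1 and -1.06 ± 0.18 in S2 (SE). Of 10 other measured muscle genes, none was called in S1 by limma and 2 were called lower in S2: pvalb, a calcium-binding parvalbumin, at -0.95 ± 0.22, and lrrc14b at -1.10 ± 0.28 (limma adjusted p = 0.0309 and 0.0468). At an unadjusted p under 0.05, 3 of the 10 were lower in each mixture, where 10% of all named genes were in S1 and 13.3% in S2. The medians of the 10 genes were -0.20 in S1 and -0.12 in S2. Their mean level relative to controls ran between -0.37 and -0.19 in S1 and between -0.42 and -0.21 in S2, against -0.15 to 0.10 in controls, and a part of muscle content in the mss51 value was not tested.

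The product of stpg4 is named for sperm-tail PG-rich repeats, and the gene was placed on the motile cilium list by that name. It was a dim probe, with levels of -4.83, -4.79, -4.76 and -4.79 in S1 and of -5.16, -5.57, -5.02 and -5.37 in S2, against -4.03, -4.16, -3.80 and -4.33 in controls. The 4 S1 arrays were nearly equal, every S2 array was below every S1 array, and neither mixture overlapped with the controls. The change was -0.71 ± 0.14 in S1 and -1.20 ± 0.14 in S2 (SE), and stpg4 was the member nearest to the -0.7 criterion. The direction of this dim probe differed under normexp, which also adds an offset to every signal. Its S1 change was then 0.25 with outlying local backgrounds replaced and 0.55 with backgrounds as measured, where its S2 change was 0.10. Whether the background correction or the offset turned the sign was not tested.

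Of 21 other measured cilium genes, 1 (ift88) was called lower in S1 and 4 in S2, none higher, where 0.892% and 3.02% of named genes were called lower, and the medians were -0.10 and -0.26. The intraflagellar transport gene ift88 changed by -0.45 ± 0.10 in both mixtures (limma adjusted p = 0.0488 in S1 and 0.0301 in S2). The others were called in S2: ppp1r32 at -1.06 ± 0.16, morn3 at -0.69 ± 0.15 and lrrd1 at -1.16 ± 0.29 (limma adjusted p = 0.00428, 0.0264 and 0.0415). Their list's mean level relative to controls ran between -0.27 and -0.08 in S1 and between -0.36 and -0.16 in S2, against -0.17 to 0.08 in controls, and its part in the stpg4 value was not tested.

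The remaining named members were cnp, whose mammalian product is a cyclic nucleotide phosphodiesterase of myelin-forming cells, and the open reading frames c4h3orf84 and c4orf45. The cnp levels were -4.61, -5.62, -4.25 and -5.30 in S1 and -5.06, -5.19, -5.25 and -5.26 in S2, against -4.01, -4.11, -3.97 and -4.16 in controls. S1 was spread over more than 1 log2 unit while S2 and controls were each tight, and S1-3 came close to C-4 without overlap. The c4h3orf84 levels were -3.46, -3.35, -3.28 and -3.38 in S1 and -3.55, -3.38, -3.32 and -3.38 in S2, against -2.42, -2.72, -2.56 and -2.68 in controls. Both mixtures gave nearly the same level, apart from the controls by more than the range within any group. The c4orf45 levels were -5.29, -5.41, -5.18 and -5.27 in S1 and -5.24, -6.14, -5.40 and -5.23 in S2, against -4.63, -4.58, -4.11 and -4.61 in controls. C-3 was the highest control and S2-2 the lowest exposed array, and the groups did not overlap. Changes were -0.89 ± 0.24 in S1 and -1.13 ± 0.24 in S2 for cnp, -0.77 ± 0.10 and -0.81 ± 0.10 for c4h3orf84, and -0.80 ± 0.19 and -1.02 ± 0.19 for c4orf45 (SE). Under normexp with outlying local backgrounds replaced, the S1 changes of cnp and c4orf45 turned to 0.20 and 0.31. With backgrounds as measured, S1 changes were 0.54 for cnp, 0.63 for c4orf45 and 0.24 for c4h3orf84, and S2 changes were 0.088 for cnp and 0.19 for c4orf45.

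The 9 other lists held no member. They covered ionocytes and epithelial transport, epidermis, cartilage and bone, neurons, liver, red blood cells, kidney tubule, gut and pancreas, and myeloid cells. Among their measured genes, those of cartilage and bone had median changes of -0.37 in S1 and -0.39 in S2, with 1 and 3 of 9 called lower, where 0.892% and 3.02% of named genes were. The call in S1 was cytl1 (limma adjusted p = 0.000687), which had been left out of the set by name. The 9 liver genes had medians of 0.11 and 0.26, with 2 and 3 called higher, where 1.35% and 2.42% of named genes were called higher. The epidermis list had 1 and 2 of 8 called lower, of which the S1 call was krt78.1 (limma adjusted p = 0.00347), also left out by name. The medians and S2 counts of these lists include these genes as well. In S2 the mean level of cytl1 was -0.39 against 0.64 in controls, and that of krt78.1 was -2.06 against 0.40. Further counts of genes called lower were, for the ionocyte and epithelial transport list, 4 and 1 of 16, for the neuron list 0 and 1 of 8, and for the gut and pancreas list 0 and 1 of 4, with gut and pancreas medians of -0.83 in S1 and -0.66 in S2. Of 7 kidney tubule genes 1 and 2 were called higher, of 2 myeloid genes 0 and 1, and of 3 red blood cell genes none in either mixture. At an unadjusted p under 0.05, the lists with no limma call in S1 had 4 of 8 neuron, 2 of 4 gut and pancreas and 0 of 3 red blood cell genes lower there, beside 10% of named genes, and 1 of 2 myeloid genes higher, beside 8.17%. In S2, 1 of 3 red blood cell genes was lower, beside 13.3%.

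A pair of accessions supplied several members each, because 50 accessions of the array carry 11 numbered probes. For XM_002941760 all 11 were members. On S1 arrays their median levels were -0.51, 0.02, 0.25 and -0.72, on S2 arrays -0.28, -0.83, -0.30 and -1.48, against 0.91, 0.54, 1.11 and 0.79 on controls. The 11 probes agreed within an SD of 0.06 to 0.14 on any array, so the differences between arrays of a group were larger than those between probes. Changes ranged between -1.14 and -0.95 in S1 and between -1.63 and -1.43 in S2. These probes share a transcript and are 1 measurement repeated, not 11 findings.

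For BC122909, 3 of 11 probes were members, and 10 of 11 had no overlap between exposed and control arrays in the authors' table. Changes of its 11 probes ran between -0.78 and -0.57 in S1 and between -0.90 and -0.73 in S2, so the -0.7 criterion divided probes of 1 transcript. Counted by the 52 accessions, with an accession's probes averaged, the median change of the set was -0.92 in S1 and -1.19 in S2.

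Near the criterion, members and non-members had almost the same values in the authors' table. Just inside were stpg4 (-0.70 in S1, -1.06 in S2), XM_002942555 (-0.82 and -0.70) and c4h3orf84 (-0.76 and -0.71). Just outside, failing by the fold alone, were XM_002943422 (-0.695 and -0.96), a BC122909 probe (-0.69 and -0.75) and XM_002934804 (-0.69 and -1.39).

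The difference between the mixtures was not fixed by the choice of members and was tested. No member was called at an adjusted p under 0.05 in S2 minus S1 by limma, and none of the 29168 probes was. At an unadjusted p under 0.05, 9 members differed, 8 lower in S2 and 1 higher, and 2142 probes did in all, 7.34%. The S2 value was below the S1 value for 52 of 64 members and for 40 of 52 accessions, with medians of -0.21 and -0.17, while 55.2% of all tested probes were below 0, with a median of -0.02. The median 95% interval, not adjusted for the number of probes, reached 0.48 to each side of the estimate.

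BC135577 gave the smallest adjusted p of the set. Its levels were -2.65, -2.72, -3.22 and -2.85 in S2 and -1.66, -1.59, -1.82 and -1.71 in S1, against -0.91, -0.31, -0.49 and -0.58 in controls. The 3 groups formed separate bands in that order without overlap. S2 minus S1 was -1.16 (95% interval -1.49 to -0.84, limma adjusted p = 0.0746). With fewer probes tested the call changed: limma's adjusted p was 0.0340 over probes well above background on all arrays and 0.0398 over specific probes, and over all alternatives it ranged between 0.0340 and 0.976.

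In the other direction, XM_002933608 had levels of -2.76, -3.12, -2.80 and -3.14 in S2 and of -3.98, -3.64, -3.44 and -3.50 in S1, against -2.10, -1.97, -2.04 and -1.77 in controls. All S2 arrays lay between the S1 arrays and the controls. S2 minus S1 was 0.68 (95% interval 0.37 to 1.00, limma adjusted p = 0.368), and it turned to -0.23 under normexp with backgrounds as measured. These accessions were singled out after their values were seen.

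For the named members the S2 minus S1 intervals were -0.79 to -0.19 for stpg4, -0.73 to 0.06 for mss51, -1.24 to 0.24 for cryga.1 and -0.89 to 1.00 for bfsp2. They were -0.49 to 1.104 for cd36l, -0.54 to 0.28 for pinopsin100496420, -0.76 to 0.28 for cnp, -0.25 to 0.17 for c4h3orf84 and -0.64 to 0.20 for c4orf45. The narrowest was that of c4h3orf84, and the limma adjusted p of these 9 lay between 0.534 (stpg4) and 0.983 (bfsp2).

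Summarised by array, the median difference of the accessions from the control mean was -1.13, -0.94, -0.82 and -0.84 on S1 arrays and -1.28, -1.28, -1.03 and -1.15 on S2 arrays, against 0.00, -0.10, 0.15 and -0.01 on controls. C-3 was the highest control array for 28 of 52 accessions. Since members were chosen for a gap between groups, this order of exposed and control arrays is part of the choice. Each slide held all 3 groups, and the medians within slides 1, 2 and 3 were -1.02, -0.76 and -0.98 in S1, and -1.16, -0.86 and -1.18 in S2. Within slides, S2 minus S1 was -0.16, -0.12 and -0.17, with 37, 36 and 33 of 52 accessions lower in S2.

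Replicate arrays of the members varied more than those of other specific probes that were well above background on the controls. The median SD was 0.36 in S1, 0.29 in S2 and 0.24 in controls for members, against 0.21, 0.16 and 0.19 for the 14325 probes. The members' medians count the 11 probes of XM_002941760 and the 3 member probes of BC122909 singly, not by accession. Single arrays decided some values. In BC121414, C-4 stood at 0.15 while the other controls were at -2.82, -2.82 and -2.26, and its S1 change of -1.26 was -0.56 without C-4. In XM_002944549, S2-4 was at 1.43, level with a control, while the other S2 arrays were between -1.11 and 0.54, and its S2 change of -1.40 was -1.83 without S2-4.

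Detection limited the values of some members. On all 12 arrays, 53 of 64 members were well above background. Among the named members, cnp was well above background on only 3 S1 arrays, and c4orf45 on only 3 arrays of each mixture. LOC100494266 was not well above background on any exposed array, with measured means of -6.15 in S1 and -6.89 in S2, against -5.02 in controls. The measured signal was 2.19-fold lower in S1, where S1-4 (-5.35) overlapped with C-2 (-5.48) on this scale. In S2 it was 3.26-fold lower, with no array taken below its dimmest flagged level. Under normexp its changes were 0.41 in S1 and 0.0017 in S2 with outlying local backgrounds replaced. With backgrounds as measured they were 0.68 and 0.19. XM_002941430 was not well above background on any S2 array, where its measured signal was 2.49-fold lower than in controls. Its S2 change under normexp was -0.03 with outlying local backgrounds replaced and 0.23 with backgrounds as measured.

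Members were spread over the whole range of control brightness, with 16, 15, 11 and 22 in the quartiles of the eligible probes, dim to bright. The 22 in the brightest quartile include the 11 probes of XM_002941760, which are 1 measurement repeated. How far the members' falls changed under normexp differed with brightness. Normexp also added an offset of 50 to every signal, which by itself makes the log2 falls of dim probes smaller. The values below therefore do not separate the offset from the background correction. The 17 members with a mean level under -4, among them cryga.1, stpg4, cnp and c4orf45, had median processed signals between 8.12 and 13.8 on S1 arrays and between 10.1 and 16.8 on S2 arrays, against 24.8 to 53.1 on controls, where the median local background was 24 to 27. Under normexp background correction with outlying local backgrounds replaced, the median of all probes moved to 0.16 in S1 and 0.08 in S2. The 17 dim members then had medians of 0.23 in S1, with 2 of 17 below 0, and -0.14 in S2, with 15 of 17 below 0.

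Relative to the median of all probes, those medians were 0.07 in S1 and -0.23 in S2. The other 47 members had medians of -0.75 in S1 and -0.93 in S2 under the same correction, or -0.91 and -1.01 relative to all probes, and all 47 were below 0 in each mixture. With local backgrounds as measured, 32 of the 47 were below 0 in S1 and 44 in S2, with medians of -0.40 and -0.49 where all probes had 0.26 and 0.15, and bfsp2, mss51 and c4h3orf84 were then above 0 in S1. The division at -4 was made after values were seen. BC158527, CU075792, pinopsin100496420, cd36l, bfsp2, mss51 and c4h3orf84 are among the 47. The 47 also include the 11 probes of XM_002941760 and the 3 member probes of BC122909, which repeat their transcripts.

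Of 36 genes next to the 18 matched genes in the RefSeq assembly, 8 were measured. None of these 8 was a member, where 0.475% of eligible probes met the choosing criteria. The others had no matched probe, so their values could not be seen. The alcohol dehydrogenase gene adh1a, beside LOC100488099, was called higher in both mixtures, at 0.78 in S1 and 1.00 in S2 (limma adjusted p = 0.0129 and 0.00190). Among named genes, 1.35% were called higher in S1 and 2.42% in S2. LOC100488099 itself was not called, with changes of -0.77 ± 0.27 and -0.97 ± 0.27 (limma adjusted p = 0.170 and 0.0636). It was a dim probe, well above background on 2 S1 arrays. Under normexp its changes were 0.37 in S1 and 0.06 in S2 with outlying backgrounds replaced, and 0.69 and 0.23 with backgrounds as measured. LOC100493137, beside mss51, was called lower in S2, at -0.62 (limma adjusted p = 0.0408), where 2.63% of all tested probes were.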

How the data were processed

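Total RNA of whole embryos was labelled with Cy3 and hybridised to 1-colour Agilent arrays, per the labels' protocols. The 3 slides were inferred from a number in the name of each array's scan. Scanner files hold intensity values from Agilent Feature Extraction 11.0.1.1, background-subtracted, per the file headers. The authors' deposited log2 table holds the same arrays; it equals the quantile-normalised log2 processed signal to within 5.5e-09, with a median of 6.80 in each column and no centring. Of the probe spots, 295 were flagged as outliers and none was saturated. A flagged spot was left out only where its probe had an unflagged spot on that array, so probes with 1 spot kept theirs. Spots of a probe were averaged, and each array's 75th percentile was subtracted. The 29168 probes that at least 4 arrays flagged as well above background were fitted with limma 3.58.1 in R 4.3.3, all groups in 1 model, with Benjamini-Hochberg adjustment over all tested probes.

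The members and gene lists were chosen with earlier results of these data known. For probes with 2 spots the choosing criterion was read as both spots flagged; 65 probes are members if either counts. All members with a gene symbol are named; per-array values are given for these, for the 2 unnamed members with the lowest mean change, and for others singled out after their values were seen. A gene on a list is represented by its brightest specific probe, otherwise its brightest probe. The number of arrays limits the precision. The script was tested on simulated data. Alternatives were quantile scaling, the deposited table, normexp (offset 50) on the median in place of the mean signal with backgrounds as measured or with outlying ones replaced, other probe filters, slide, replicate and brightness terms, and arrays left out.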

Additional observations from a re-analysis of the deposited data

Results flagged for a closer look

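Among 51 groups of 4 arrays examined (the named members and clones described above), 3 held an array whose gap to the nearest other array exceeded Dixon's 95% critical share of the group's range. For groups not chosen by their values, chance alone gives about 1 in 20. The members were chosen by values on these arrays, so that rate need not hold here. In cd36l, S1-4 stood at -1.39 while the other S1 arrays lay between 0.25 and 0.55. In CU075792, S2-2 stood at -1.26 while the other S2 arrays lay between -0.70 and -0.63. In c4orf45, C-3 stood at -4.11 while the other controls lay between -4.63 and -4.58. The reason for these values was not tested.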

How the results depend on the processing

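The members' fall changed most under normexp, where the background correction, the offset and the use of the median signal changed together. With normexp on backgrounds as measured, median changes were -0.019 in S1 and -0.28 in S2, 1 and 2 members were called, and 28 and 29 probes in all; 7 members met the choosing criteria. With outlying backgrounds replaced, medians were -0.49 and -0.70, 29 members and 653 probes were called in S2, and 23 members met the criteria. On the 75th percentile scale, which is that of the main fits, 56 met them, a check added after seeing the data. As measured, S1 changes turned positive for stpg4 (0.55), c4h3orf84 (0.24), c4orf45 (0.63), cryga.1 (0.58), bfsp2 (0.042), cnp (0.54), mss51 (0.018), XM_002933608 (0.067) and BC121414 (1.29), and S2 changes for stpg4 (0.10), c4orf45 (0.19), cryga.1 (0.14), cnp (0.088) and BC121414 (0.97). With outlying backgrounds replaced, S1 changes turned positive for stpg4 (0.25), c4orf45 (0.31), cryga.1 (0.21) and cnp (0.20). The cause was not tested. The median shift of all probes was 0.26 and 0.15 as measured.

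The brightness covariate left 6 members and 104 probes called in S1, and 36 and 732 in S2. Testing specific probes alone gave 341 and 839 probes, and in S2 minus S1 2 probes and 1 member, BC135577, as did the filter for all arrays; fewer probes were tested in both. The S2 median was -1.16 under quantile scaling and in the deposited table, and -1.13 with arrays C-3, S1-4 and S2-4 removed together. Leaving out 1 array at a time gave 277 to 744 probes and 14 to 40 members in S1, 482 to 1673 and 40 to 58 in S2, and 0 to 1 and 0 in S2 minus S1, with medians of -1.09 to -0.92, -1.36 to -1.16 and -0.26 to -0.19. Leaving out C-1 or C-2 each left 14 members called in S1, among 349 and 294 probes called in all. Leaving out S1-1 left 15 among 376, S1-3 16 among 277, C-3 17 among 379 and C-4 18 among 333. Same-numbered arrays correlated between -0.03 and 0.36 in their deviations from the group means. They were above 0.1 in 8 of 12 pairs, against 4 of 36 pairs of other numbers. Pairs from 1 slide were above 0.1 in 9 of 15 cases, against 3 of 33 pairs from different slides. Most same-numbered pairs also shared a slide, so number and slide were largely confounded. Of 12 arrays, 8 correlated best with 1 of their own number. Not every same-numbered pair was above 0.1, and the main fit did not take the numbers as pairing. This does not show that the arrays were unpaired, so fits with a slide or replicate block are given as well. With slide as a block, 29 members and 555 probes in all were called in S1, 54 and 1049 in S2, and 0 and 0 in S2 minus S1. With the replicate block, 30, 56 and 0 members and 420, 1100 and 0 probes were called; pinopsin100496420 in S1 was no longer called, while bfsp2 in both mixtures and mss51 in S1 were.

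Some S2 minus S1 values changed sign, none called: XM_002933608, 0.68 in the main setting, was -0.23 under normexp as measured, and the others lay between -0.14 and 0.31 in the main setting: c4h3orf84 (0.045 quantile, 0.048 deposited table, -0.069 to 0.0098 leaving out arrays), bfsp2 (-0.16 and -0.091 normexp, -0.21 without 3 arrays, -0.35 to 0.38 leaving out 1), cd36l (-0.046 brightness, -0.0078 without 3 arrays, -0.15 to 0.50 leaving out 1), BC121414 (0.50 brightness), XM_002944549 (-0.27 brightness, -0.50 without 3 arrays, -0.42 to 0.42 leaving out 1) and CU075792 (-0.20 to 0.0043 leaving out 1).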
